A study of Homo sapiens with 12 samples.

Results

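Ribosome biogenesis factors were followed in the established human line HD-MyZ, which is labelled as Hodgkin lymphoma, under 2 kinase-directed drugs. The factors were a list of 49 genes, found by matching their symbols to the named probes of an Illumina expression array, with the brightest probe kept for each gene. A probe was found for 45 of the 49, out of 18852 genes measured in all. WDR43, GNL3, DDX18 and EBNA1BP2 were not on a named probe and were not analysed here. Cultures had been given 10 µM perifosine together with 5 µM sorafenib (called the combination below), 5 µM sorafenib alone, 10 µM perifosine alone, or neither drug (control), and RNA was taken after 24 hours. Each group had 3 arrays, labelled A, B and C, which makes 12. All 4 groups are the same unmodified line in culture, and the labels do not say whether A, B and C were separate cultures, so p-values may reflect technical spread alone. Perifosine is an alkylphospholipid that interferes with AKT signalling, and sorafenib is a multikinase inhibitor directed at RAF and several receptor kinases.

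A cell makes its ribosomes in the nucleolus. RNA polymerase I transcribes the long precursor of the ribosomal RNAs, small nucleolar ribonucleoproteins (snoRNPs) modify its bases and sugars, and large sets of assembly factors cut the precursor and fold it with ribosomal proteins into the small and large subunits. The factors themselves are encoded by ordinary nuclear genes, many of which carry the E-box CACGTG near their start, a sequence bound by the transcription factor MYC and its relatives. Growth signalling through ERK and through AKT and mTOR is known to act on this pathway.

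Promoters of 4 factors are shown here because these 4 had the smallest adjusted p-values of the measured factors that have an entry in the promoter table. They were BYSL (bystin, a late small subunit factor), PNO1 (an RNA-binding partner of the nuclease NOB1), NIP7 (a large subunit processing factor) and NOP2 (a methyltransferase of the large subunit RNA). Each window is 300 bases from RefSeq on GRCh38.p14, read 5′ to 3′ on the gene's strand, with 250 bases before the start and 50 after it, and the capitals mark CACGTG. The BYSL window is chr6:41921249-41921548 on the plus strand, that of PNO1 is chr2:68157638-68157937 on the plus strand, that of NIP7 is chr16:69339522-69339821 on the plus strand, and that of NOP2 is chr12:6568242-6568541 on the minus strand.
BYSL: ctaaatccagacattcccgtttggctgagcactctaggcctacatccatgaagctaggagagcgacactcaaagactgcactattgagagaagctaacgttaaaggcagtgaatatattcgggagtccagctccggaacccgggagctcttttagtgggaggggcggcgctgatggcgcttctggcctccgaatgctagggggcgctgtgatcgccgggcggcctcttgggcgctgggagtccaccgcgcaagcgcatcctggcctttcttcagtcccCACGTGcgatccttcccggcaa
PNO1: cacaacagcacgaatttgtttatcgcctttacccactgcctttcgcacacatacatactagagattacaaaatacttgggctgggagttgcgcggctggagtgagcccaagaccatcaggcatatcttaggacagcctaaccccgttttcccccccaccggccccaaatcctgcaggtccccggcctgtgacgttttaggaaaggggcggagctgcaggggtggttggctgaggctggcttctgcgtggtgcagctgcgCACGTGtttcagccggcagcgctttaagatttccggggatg
NIP7: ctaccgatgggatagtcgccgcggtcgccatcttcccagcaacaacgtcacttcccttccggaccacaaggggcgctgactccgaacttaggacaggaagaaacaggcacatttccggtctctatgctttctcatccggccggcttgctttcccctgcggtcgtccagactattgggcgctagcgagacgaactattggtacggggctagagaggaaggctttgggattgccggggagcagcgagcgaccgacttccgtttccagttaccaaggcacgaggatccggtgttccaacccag
NOP2: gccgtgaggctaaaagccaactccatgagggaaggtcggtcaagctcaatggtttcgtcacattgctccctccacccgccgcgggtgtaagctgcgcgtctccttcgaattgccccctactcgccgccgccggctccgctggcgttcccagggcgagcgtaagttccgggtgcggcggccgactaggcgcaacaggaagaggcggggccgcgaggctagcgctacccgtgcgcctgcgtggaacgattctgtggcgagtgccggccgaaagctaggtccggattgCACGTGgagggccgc
The first base of CACGTG lay at +29 in BYSL, +10 in PNO1 and +36 in NOP2, where +1 is the first transcribed base. The NIP7 window did not contain these letters.

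CACGTG is its own reverse complement, so a match on one strand is a match on both. It was found in at least 1 window of 20 of the 41 listed factors that have an entry, which is 48.8%, against 8.77% of all 27305 genes in the table (2396 genes). Of the 10 factors that fell with sorafenib (below), 9 had an entry and 6 of these contained it: BYSL, PNO1, NOP2, LYAR, RCL1 and RRP9. Of the other 32 listed factors with an entry, 14 did (43.8%). These 14 include EBNA1BP2, GNL3 and WDR43, which were not measured and so could not be called. In a wider list of other ribosome biogenesis genes 31 of 105 contained it (29.5%), whereas 1 of 14 genes of a list for polymerase I and ribosomal DNA transcription (7.14%) and 4 of 63 cytosolic ribosomal protein genes (6.35%) did, near the share over all genes. A match describes letters in a window and was not tested as a binding site.

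The deposited intensities had the same distribution in every array to within 2.35%. The lowest intensity was 170 and the densest 275, so background appears not to have been taken off, though the sources do not say. Log2 changes of dim genes would then be understated. Of the 45 measured factors, 42 averaged a log2 intensity of 9 or more (an intensity of 512), and NPM1, RRP1 and UTP20 lay under it, near the background. The NPM1 probe kept averaged a log2 intensity of 8.14, so the abundant nucleolar protein nucleophosmin is in effect not read here. The labelled cell type was checked on markers: of 6 Hodgkin cell markers, FUT4, TRAF1 and JUNB were above that limit on average, while TNFRSF8 (CD30, the defining surface marker) averaged a log2 intensity of 8.12 and CCL17 and IRF4 were also near the background. B cell and T cell markers were near the background in full (0 of 5 and 0 of 4 above the limit), and of 6 monocyte and macrophage markers CD68, a lysosomal protein, was the 1 above it. In bulk RNA a lower level in every cell and fewer cells that carry the RNA cannot be told apart.

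Combination A, sorafenib B and control C stood apart from the other 2 arrays of their group. The correlation of their group mates with each other exceeded their own correlation with them by 0.0086, 0.0307 and 0.0089. In these arrays the factors did not shift together. The box H/ACA snoRNP, which carries out pseudouridylation, showed both directions. Its small partner proteins were low there: NOP10 lay below its group mates by a log2 difference of -1.34 in combination A, -1.77 in sorafenib B and -1.45 in control C, and NHP2 by -1.15, -1.80 and -0.94 in the same order. Its catalytic subunit DKC1 lay above its group mates in the same 3 arrays, by 0.54, 0.93 and 0.58. NOP16 (-1.25, -1.51 and -0.63), GAR1 (-0.74, -1.15 and -0.34) and FBL, the snoRNP methyltransferase fibrillarin (-0.63, -1.21 and -0.41), were low in all 3, whereas the GTPase gene GNL2 was high (0.43, 1.10 and 0.69). Over the 45 factors, 13 were lower and 16 higher than their mates in all 3 arrays, against 20.5% and 24.8% of all genes. The residual spread of the factors ran accordingly, with a log2 SD of 0.11 for PNO1, 0.14 for NOP2 and 0.15 for BYSL, but 0.61 for NOP16, 0.68 for NHP2 and 0.79 for NOP10, against a median of 0.24 over genes above the dim limit. All 12 arrays were kept in the tests, and values without these 3 arrays are given beside each factor whose call in the averaged sorafenib comparison turns without them. The 3 arrays were picked for differing from their group mates, so leaving them out narrows the residual spread by choice. Adjusted p-values of that fit are therefore optimistic, and it has 2 arrays in each of 3 groups.

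**Figure D1:**
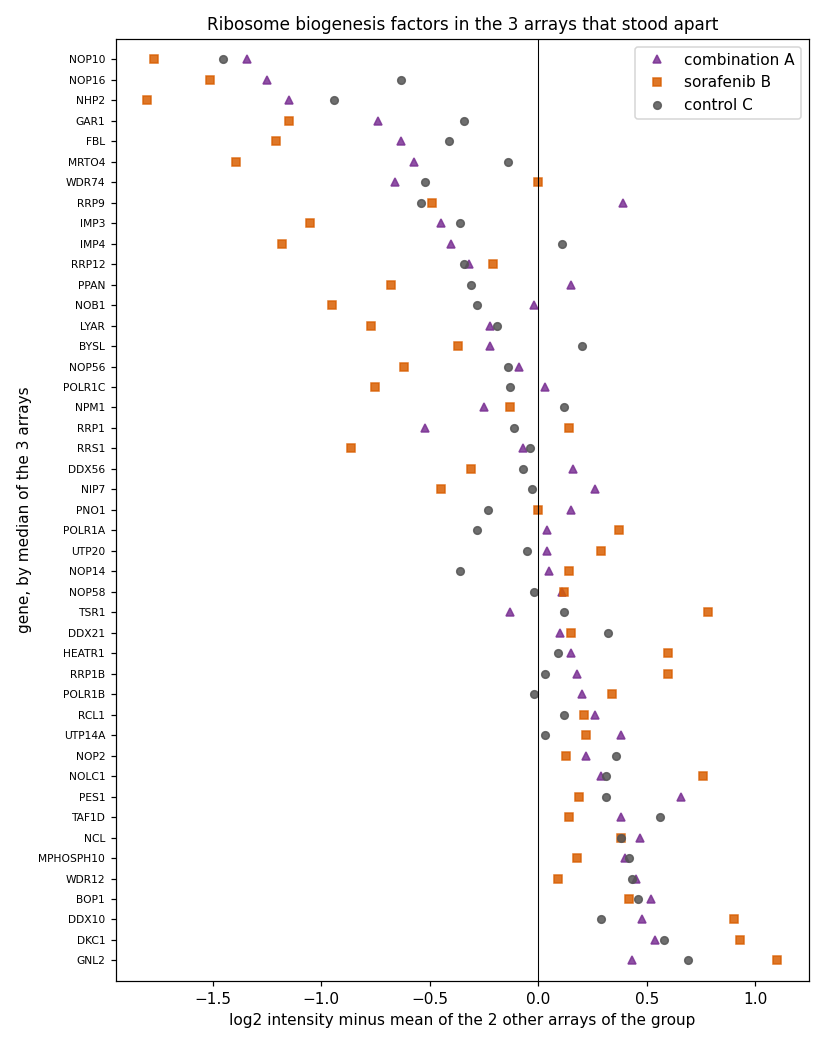
Log2 intensity of the 45 measured factors in combination A, sorafenib B and control C minus the mean of the 2 other arrays of the same group (x axis), with genes ordered by the median of the 3 differences (y axis). NOP10, NOP16 and NHP2 lie furthest to the low side in all 3 arrays, whereas GNL2 and DKC1 have the highest medians of the 3 differences.

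Arrays with sorafenib held lower levels of part of the programme. In the comparison of the 6 arrays that had sorafenib (combination and sorafenib) with the 6 that did not (perifosine and control), 10 of 45 factors fell and 0 rose (limma, adjusted p under 0.05), against 2.93% of all genes lower and 4.26% higher. Among genes above the dim limit the share lower was 5.26%. The median log2 change of the 45 factors was -0.30 and 40 of the 45 values lay below zero, beside a median of 0.00 over all genes. In 10 of the 45, every array with sorafenib lay below every array without it, against 1.9% of all genes. The factors that fell did so by 1.3 to 1.68-fold: BYSL, PNO1, RRP12, RCL1, RRP9 and IMP3 of the small subunit, NIP7, NOP2 and DDX56 of the large subunit, and LYAR, a nucleolar zinc finger protein. Changes of single genes below are log2 changes from limma over all 12 arrays, with the standard error (SE) and a p-value adjusted over all 18852 genes.

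**Figure D2:**
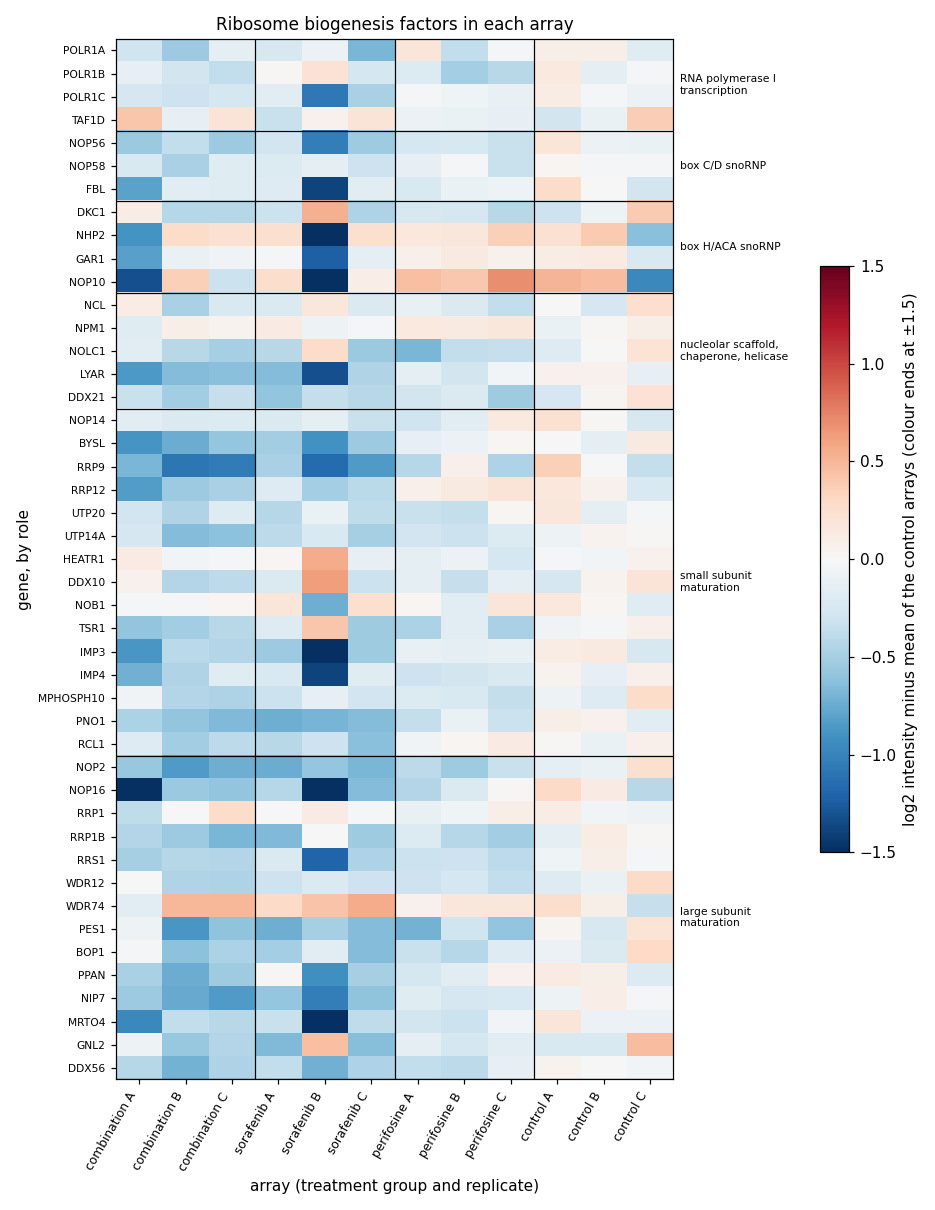
Log2 intensity of each of the 45 measured factors in each of the 12 arrays minus the mean of the 3 control arrays, as colour, with genes grouped by role (rows) and arrays by treatment (columns). BYSL, PNO1, NIP7 and NOP2 are blue in all 6 arrays with sorafenib, whereas NOP10 and NHP2 are deepest blue in sorafenib B and combination A.

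Of the small subunit factors, BYSL, PNO1 and RRP12 had the smallest adjusted p-values. BYSL had intensities of 4265, 4697 and 5276 in combination arrays, 5522, 4219 and 5408 in sorafenib arrays, 7229, 7443 and 7986 in perifosine arrays and 7873, 7220 and 8665 in control arrays. Every array with sorafenib lay below every array without it, and perifosine and control arrays overlapped. The averaged change was -0.67 (SE 0.09, 95% confidence interval -0.86 to -0.47, adjusted p = 0.00123). PNO1 had 4383, 4064 and 3859 in combination arrays, 3671, 3770 and 3897 in sorafenib arrays, 4756, 5695 and 4901 in perifosine arrays and 6507, 6369 and 5491 in control arrays. All arrays with sorafenib were again the lowest, at a change of -0.50 (SE 0.08, adjusted p = 0.00202). RRP12, an export factor of pre-ribosomal particles, had 1917, 2351 and 2437 in combination arrays, 2989, 2399 and 2580 in sorafenib arrays, 3601, 3747 and 3932 in perifosine arrays and 3811, 3597 and 2934 in control arrays. Sorafenib A was above control C, so these groups overlapped, while the combination arrays were below all arrays without sorafenib. RRP12 changed by -0.57 (SE 0.09, adjusted p = 0.00415).

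The other small subunit factors that fell belong to the processome, the particle that forms on the precursor around the U3 snoRNA. RCL1, a cyclase-like protein of that particle, had 2577, 2059 and 2257 in combination arrays, 2209, 2375 and 1915 in sorafenib arrays, 2852, 3009 and 3207 in perifosine arrays and 2993, 2762 and 3118 in control arrays, without overlap between arrays with and without sorafenib. It changed by -0.43 (SE 0.08, adjusted p = 0.00928). RRP9, a protein of the U3 snoRNP itself, had 1165, 881 and 899 in combination arrays, 1333, 837 and 1036 in sorafenib arrays, 1391, 1968 and 1358 in perifosine arrays and 2396, 1869 and 1454 in control arrays. Its highest array with sorafenib was only just below its lowest without, and it changed by -0.75 (SE 0.16, adjusted p = 0.0149). IMP3, which joins U3 to the precursor, had 9599, 13279 and 12947 in combination arrays, 12129, 5871 and 12169 in sorafenib arrays, 16345, 16076 and 16370 in perifosine arrays and 19006, 19315 and 14920 in control arrays. The groups with and without sorafenib did not overlap, and the lowest values of the combination, sorafenib and control groups were those of the 3 arrays that stood apart. IMP3 changed by -0.67 (SE 0.18, adjusted p = 0.0399), and without the 3 by -0.48 (SE 0.07, adjusted p = 0.000875). Its call with all arrays ended with a replicate block and when any 1 of 8 arrays was left out (control A or B, or any array of the perifosine or combination groups; adjusted p up to 0.0999).

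Of the 15 measured small subunit factors, 14 had a value below zero and the median change was -0.30. UTP14A, an activator of the processome's helicase step, was at -0.30 (SE 0.08, adjusted p = 0.0548) with all arrays, and fell by 0.40 without the 3 arrays that stood apart (SE 0.08, adjusted p = 0.00473). NOP14, UTP20, MPHOSPH10, TSR1, NOB1, DDX10 and the processome scaffold HEATR1 had changes between -0.20 and 0.17, and IMP4, the partner of IMP3, was at -0.39 with all arrays and -0.11 without the 3; none of these 8 passed the test either way. NOB1, the nuclease that makes the final cut of the small subunit RNA, was at -0.06, beside -0.50 for its partner PNO1; the difference between the 2 genes was not tested.

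**Figure D3:**
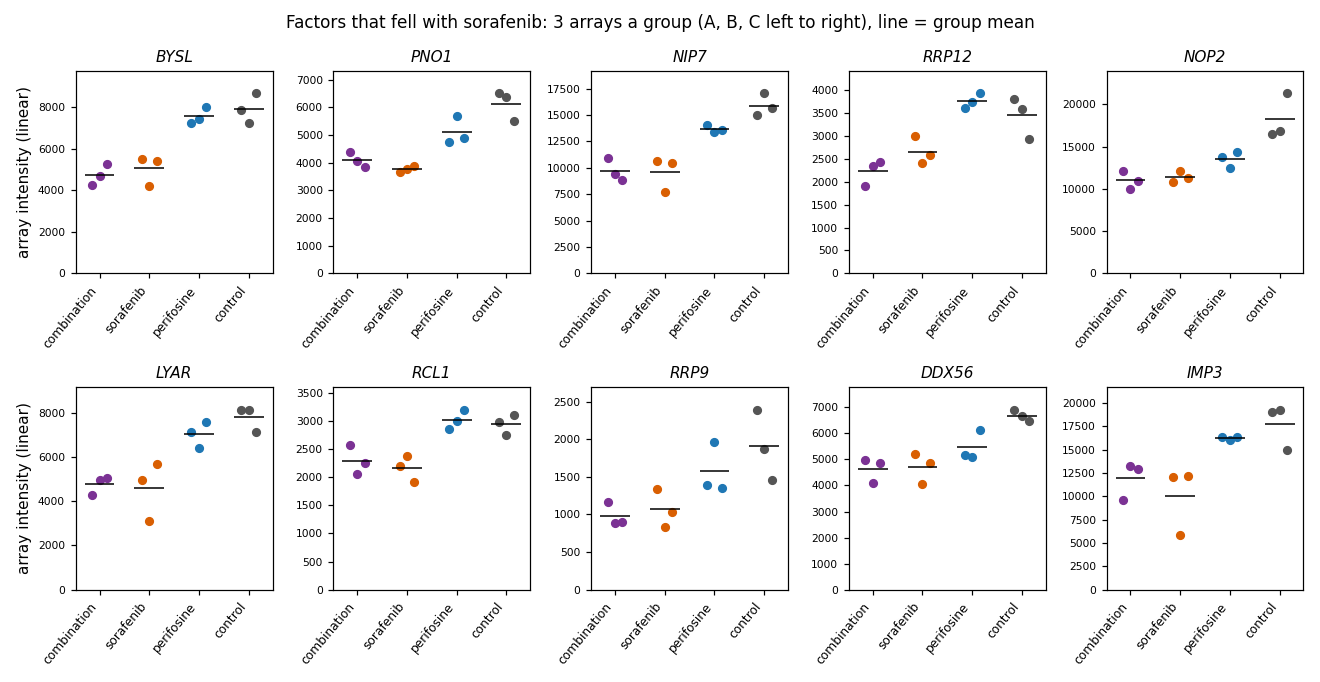
Linear array intensity (y axes, from 0) of the 10 factors that fell with sorafenib, with 1 point per array (A, B and C left to right in each group) and a line at the group mean. Points of the combination and sorafenib groups lie below those of the perifosine and control groups for BYSL, PNO1, NIP7, NOP2, LYAR, RCL1, RRP9 and IMP3, and overlap with them for RRP12 and DDX56.

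Among large subunit factors NIP7, NOP2 and DDX56 fell, 3 of 14 measured. NIP7 had 10891, 9363 and 8812 in combination arrays, 10590, 7720 and 10481 in sorafenib arrays, 14007, 13336 and 13526 in perifosine arrays and 14990, 17048 and 15627 in control arrays, with all arrays that had sorafenib the lowest and perifosine arrays below all control arrays. It changed by -0.62 with sorafenib (SE 0.09, adjusted p = 0.00223). NOP2 had 12178, 10030 and 10896 in combination arrays, 10825, 12091 and 11263 in sorafenib arrays, 13819, 12508 and 14414 in perifosine arrays and 16499, 16844 and 21325 in control arrays. Its groups were ordered in the same way, and it changed by -0.49 (SE 0.09, adjusted p = 0.00606). A second NOP2 probe changed by -0.46 and the third, near the background, by 0.03. DDX56, an RNA helicase, had 4989, 4093 and 4864 in combination arrays, 5191, 4064 and 4860 in sorafenib arrays, 5167, 5111 and 6149 in perifosine arrays and 6918, 6668 and 6479 in control arrays. Sorafenib A overlapped with perifosine arrays, and all 9 treated arrays lay below all control arrays. DDX56 changed by -0.38 (SE 0.09, adjusted p = 0.0241). This call ended without control A, control B, perifosine C or combination B and with a background correction (adjusted p up to 0.0808).

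The remaining 11 large subunit factors did not pass the test in the 12 arrays. MRTO4, an assembly placeholder for a ribosomal stalk protein, was at -0.59 (SE 0.22, adjusted p = 0.153), and at -0.29 (SE 0.09, adjusted p = 0.0528) without the 3 arrays that stood apart. PPAN was at -0.47 (adjusted p = 0.0757), and RRS1, which brings in the 5S particle, RRP1B, GNL2 and RRP1 lay between -0.37 and 0.01. Without the 3 arrays, where p-values are optimistic as said above, PPAN (-0.43, adjusted p = 0.0243), RRP1B (-0.41, adjusted p = 0.0121) and GNL2 (-0.36, adjusted p = 0.00697) passed the threshold. NOP16 had the lowest value of all 45 factors at -0.91, with an SE of 0.30 (adjusted p = 0.102). Its intensities were 1681, 4055 and 3959 in combination arrays, 4442, 1442 and 3805 in sorafenib arrays, 4402, 5124 and 6019 in perifosine arrays and 7281, 6503 and 4457 in control arrays, so the lowest value of the combination, sorafenib and control groups was that of the array that stood apart. Without those 3 arrays its change was -0.55 (SE 0.10, adjusted p = 0.00339). PES1, BOP1 and WDR12, which form the PeBoW complex, were at -0.31, -0.24 and -0.13 (adjusted p = 0.244, 0.354 and 0.572), and without the 3 arrays PES1 and BOP1 fell (-0.40 and -0.33, adjusted p = 0.0264 and 0.0228). WDR74, a remodelling factor of nuclear particles, had the highest value of the 45, at 0.28 (SE 0.13, adjusted p = 0.282). It had 1209, 1900 and 1910 in combination arrays, 1644, 1807 and 1987 in sorafenib arrays, 1415, 1522 and 1521 in perifosine arrays and 1615, 1430 and 1061 in control arrays, with combination A lower than its group mates. Without the 3 arrays 19 factors fell and WDR74 was the 1 factor that rose (0.30, SE 0.09, adjusted p = 0.0336), against 6.23% of all genes lower and 7.25% higher.

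LYAR was the 1 of 5 nucleolar scaffolds, chaperones and helicases that fell in the averaged comparison. It had 4290, 4969 and 5049 in combination arrays, 4950, 3117 and 5675 in sorafenib arrays, 7101, 6415 and 7584 in perifosine arrays and 8135, 8114 and 7124 in control arrays, with no overlap between arrays with and without sorafenib. It changed by -0.68 (SE 0.13, adjusted p = 0.00905), and a second LYAR probe by -0.51. Nucleolin (NCL), the most studied protein of the group, was at -0.03 (95% confidence interval -0.31 to 0.24, adjusted p = 0.940). The helicase DDX21 was at -0.26, and NPM1 and NOLC1 at -0.08 and -0.07.

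With all 12 arrays no snoRNP protein or polymerase I factor of the list passed the test, and without the 3 that stood apart NOP56 and POLR1C did. Of the box C/D snoRNP, which methylates ribosomal RNA, NOP56 came nearest, with 21750, 24637 and 21883 in combination arrays, 26250, 15596 and 22014 in sorafenib arrays, 26558, 26963 and 25359 in perifosine arrays and 36350, 29948 and 29914 in control arrays. Its 6 arrays with sorafenib lay below all 3 control arrays and overlapped with perifosine arrays, and the averaged change was -0.41 (SE 0.12, adjusted p = 0.0557) with all arrays and -0.32 (SE 0.09, adjusted p = 0.0382) without the 3. A second NOP56 probe changed by -0.41, and the third, nearly as bright as the probe kept, by only -0.16. The NOP56 partners FBL and NOP58 were at -0.42 and -0.18, and FBL at -0.18 (adjusted p = 0.215) without the 3 arrays. Of the box H/ACA snoRNP, GAR1 had 9157, 15052 and 15519 in combination arrays, 15978, 6897 and 14565 in sorafenib arrays, 16988, 17673 and 16879 in perifosine arrays and 17369, 17488 and 13776 in control arrays. The 3 lowest of these 12 values were those of the arrays that stood apart, and the change was -0.44 (SE 0.20, adjusted p = 0.266) with all arrays and -0.18 (SE 0.08, adjusted p = 0.151) without them. NOP10 was at -0.68 (SE 0.38, adjusted p = 0.382), and at -0.41 (adjusted p = 0.0535) without the 3 arrays. NHP2 was at -0.36, and at -0.03 without them, and DKC1 was at -0.01. POLR1C, a subunit shared by polymerases I and III, had 6659, 6413 and 6593 in combination arrays, 7105, 3790 and 5690 in sorafenib arrays, 7792, 7578 and 7365 in perifosine arrays and 8610, 7784 and 7487 in control arrays. No array with sorafenib reached an array without it, and its change was -0.39 (SE 0.13, adjusted p = 0.0961) with all arrays and -0.29 (SE 0.09, adjusted p = 0.0433) without the 3. The catalytic subunits POLR1A and POLR1B were at -0.29 and 0.05, and TAF1D, of the polymerase I selectivity factor, at 0.12.

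**Figure D4:**
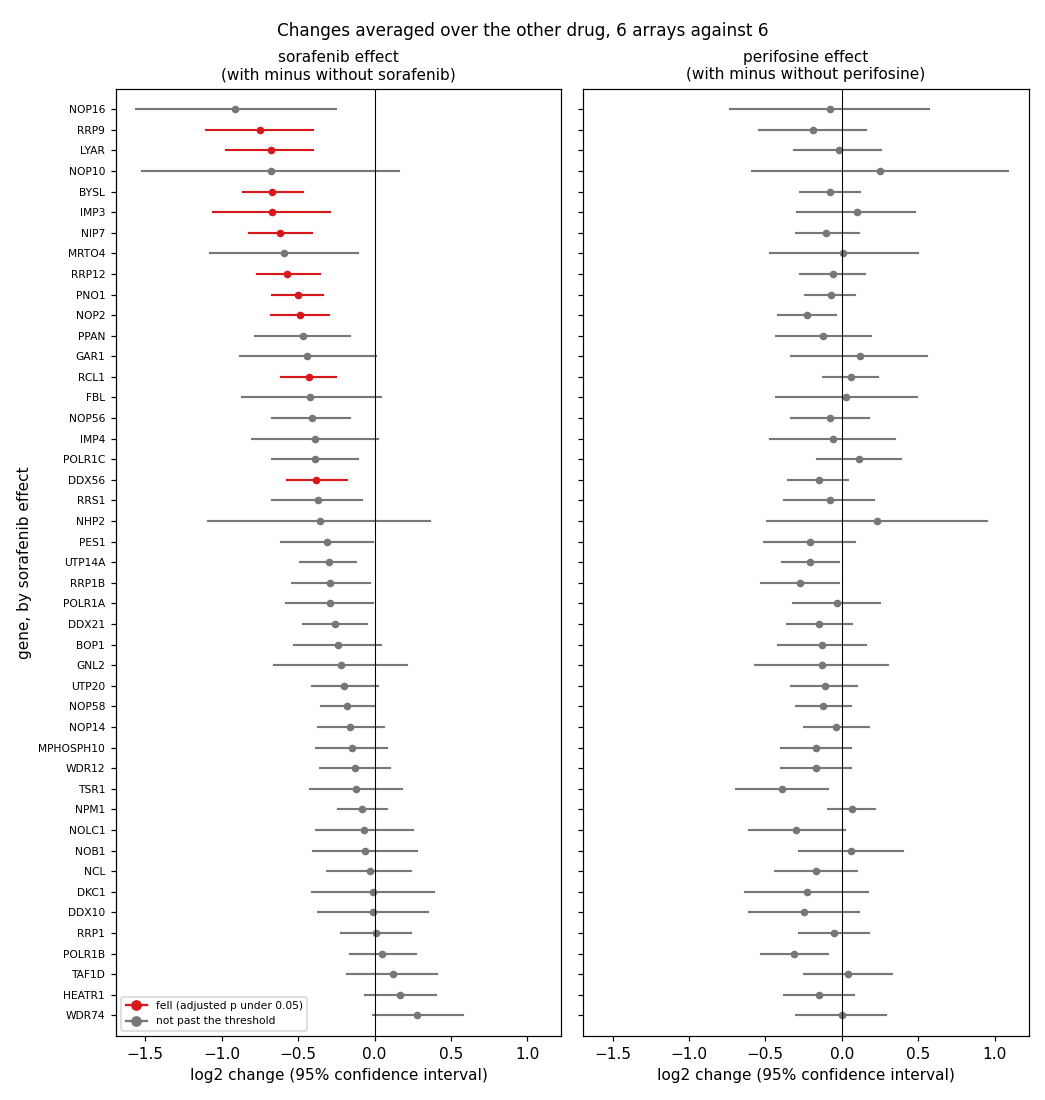
Log2 change with 95% confidence interval (x axes) of each of the 45 measured factors (y axis) for sorafenib averaged over perifosine (left) and for perifosine averaged over sorafenib (right), 6 arrays against 6, with factors past the adjusted p threshold in red. The 10 red factors are on the left, between -0.75 and -0.38, and there is none on the right.

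The single comparisons ask what each treatment did against control, and they share the control arrays. In the combination against control 5 of 45 factors fell and 0 rose, against 0.7% of all genes lower and 1.12% higher. Of the 9587 genes above the dim limit, 123 were lower and 192 higher. The 5 were BYSL (-0.74, SE 0.13, adjusted p = 0.0157), NOP2 (-0.72, SE 0.12, 0.0149), NIP7 (-0.72, SE 0.13, 0.0196), RRP12 (-0.62, SE 0.13, 0.0401) and PNO1 (-0.58, SE 0.11, 0.0196). The median of the 45 was -0.37, and in 23 of the 45 all combination arrays lay below all control arrays, against 8.76% of all genes. RRP9 did not pass the test at -0.94 (SE 0.22, adjusted p = 0.0616). In sorafenib alone against control 5 of 45 fell and 0 rose, against 0.928% of all genes lower and 1.33% higher. Of the 9587 genes above the dim limit, 168 were lower and 232 higher. The 5 factors were LYAR (-0.81, SE 0.19, adjusted p = 0.0475), NIP7 (-0.74, SE 0.13, 0.0172), PNO1 (-0.69, SE 0.11, 0.00899), NOP2 (-0.67, SE 0.12, 0.0191) and BYSL (-0.66, SE 0.13, 0.0247). The median was -0.40, and 20 of 45 factors did not overlap with control on the low side, against 8.46% of all genes. These 2 counts moved with the arrays in the fit, and so did the share of all genes called. For the combination, 0 to 16 factors were called when 1 array was left out. There were 1, 2 and 3 without control A, B and C (0.78%, 0.472% and 0.865% of all genes). There were 0 and 1 without combination B and C (0.774% and 0.631%), and 16 without sorafenib B (5.55%). Sorafenib B is not in this comparison and enters it only through the shared spread, and the median stayed at -0.37. For sorafenib, 1 to 9 were called: 3 without control A (0.939%), 1 without control B or C (0.589% and 0.859%) and 9 without sorafenib A (2.7%). Of 20 other settings, 12 took RRP12 out of the calls for the combination (highest adjusted p = 0.151), and 13 took LYAR out of those for sorafenib (highest adjusted p = 0.285). The other calls for the combination ended in 6 (NIP7), 6 (PNO1), 5 (BYSL) and 4 (NOP2) settings. Those for sorafenib ended in 5 (BYSL), 5 (NOP2), 4 (NIP7) and 1 (PNO1). All 5 sorafenib calls ended with only the arrays compared. Without the 3 arrays that stood apart the counts were 16 for the combination and 11 for sorafenib, all lower, against 2.54% and 1.94% of all genes lower.

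With sorafenib added to perifosine, BYSL and RRP12 passed the threshold, though both calls ended in some settings. In the combination against perifosine alone, BYSL changed by -0.67 (SE 0.13, adjusted p = 0.018) and RRP12 by -0.76 (SE 0.13, adjusted p = 0.0118), 2 of 45 factors against 0.976% of all genes lower, and 0 rose, against 1.22% of all genes higher. Of the 9587 genes above the dim limit, 164 were lower and 212 higher. The median of the 45 was -0.18. The BYSL call ended in 6 of 20 other settings, among them those without perifosine A, B or C (highest adjusted p = 0.093). The RRP12 call ended in 3, without perifosine B, perifosine C or combination A (highest adjusted p = 0.0655). When 1 array was left out 0 to 4 factors were called. There were 1, 0 and 0 without perifosine A, B and C (1.27%, 1.18% and 1.14% of all genes). There were 0 and 1 without combination A and B (1.26% and 1.53%), and 4 without sorafenib B (5.57%), which is not in this comparison.

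Adding perifosine to sorafenib gave no factor past the threshold. In the combination against sorafenib alone, limma called 0 of 45 factors, as it called 0% of all genes, and 0 of the 45 had an unadjusted p under 0.05, against 1.54% of all genes lower and 1.87% higher. The median was -0.02, and the changes ran between -0.41 (TSR1) and 0.31 (IMP3). Without the 3 arrays that stood apart TSR1 was at -0.1 and IMP3 at 0.11. For BYSL the change was -0.08 with a 95% confidence interval of -0.37 to 0.20, and for NOP2 -0.05 with an interval of -0.32 to 0.22, so differences within these bounds are not resolved with 3 arrays a group.

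Perifosine by itself moved no factor past the threshold. In perifosine against control, limma called 0 of 45 factors, against 0.0955% of all genes lower and 0.202% higher, and 9 were lower and 0 higher at an unadjusted p under 0.05 (3.54% and 3.61% of all genes). The median log2 change was -0.21, and 37 of 45 values lay below zero. In 16 of the 45 all perifosine arrays lay below all control arrays, against 9.24% of all genes. NOP2 (-0.42, SE 0.12) had the smallest p-value (adjusted p = 0.318), and the lowest values were those of PES1 (-0.53, adjusted p = 0.523) and NOLC1, a snoRNP chaperone (-0.46, adjusted p = 0.656). NOP10 had the highest, at 0.52 (SE 0.54), and was at 0.04 without the 3 arrays that stood apart. Averaged over sorafenib, perifosine gave 0 calls by limma against 0.053% of all genes lower and 0.0955% higher, a median of -0.08, and 5 factors lower and 0 higher at an unadjusted p under 0.05 (2.86% and 3.17% of all genes). BYSL was at -0.08 (95% confidence interval -0.27 to 0.12) and RRP12 at -0.06 (-0.27 to 0.15) in that comparison.

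Whether the sorafenib change differed with perifosine present was tested as an interaction, the change of the combination from sorafenib minus that of perifosine from control. Limma called 0 of 45 factors, against 0.0159% of all genes, which are 3 genes, all lower. At an unadjusted p under 0.05 there were 2, both higher: PNO1 (0.38, SE 0.15, adjusted p = 0.971) and PES1 (0.64, SE 0.28, adjusted p = 0.991), and 0 lower, against 2.58% of all genes higher and 2.3% lower. The median of the 45 was 0.16, with 8 values below zero.

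Other genes of the pathway were read from lists that hold none of the 49 factors. In the wider list of ribosome biogenesis genes 17 of 118 measured genes fell and 0 rose with sorafenib averaged over perifosine, against 2.93% of all genes lower, with a median of -0.22. Against control, 8 of the 118 fell in the combination (0.7% of all genes, median -0.24), 7 in sorafenib (0.928% of all genes, median -0.30) and 0 in perifosine by limma (0.0955% of all genes, median -0.15). In perifosine 13 of the 118 were lower and 1 higher at an unadjusted p under 0.05, against 3.54% and 3.61% of all genes. Among the 7 that fell in sorafenib against control, the lowest values were those of UTP3, a processome protein (-0.86, SE 0.15, adjusted p = 0.0172), RRP15, a large subunit factor (-0.71, SE 0.15, adjusted p = 0.0345), GRWD1, a ribosomal protein chaperone (-0.65, SE 0.15, adjusted p = 0.0455), and URB2, also a nucleolar assembly factor (-0.60, SE 0.12, adjusted p = 0.0299). UTP3 had 1484, 1721 and 1431 in combination arrays, 1138, 1502 and 1656 in sorafenib arrays, 2360, 2266 and 2600 in perifosine arrays and 2419, 2294 and 3049 in control arrays, without overlap between arrays with and without sorafenib. These values are from the brighter of 2 UTP3 probes. Calls in sorafenib against control depended on the arrays in the fit. Over all genes, 10 were called with only the arrays compared and 111 without control B.

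The polymerase I and ribosomal DNA transcription list, with 16 measured genes, had 0 calls by limma in the averaged sorafenib comparison and a median of -0.25. Of all genes 2.93% were lower and 4.26% higher, so 0 of 16 does not set this list apart from all genes. At an unadjusted p under 0.05 by limma, 5 of the 16 were lower and 0 higher, against 1636 and 2048 of 18852 genes. This list includes MYC, which was at 0.08 (95% confidence interval -0.14 to 0.29, adjusted p = 0.782) in that comparison and at 0.00 (95% confidence interval -0.31 to 0.31) in sorafenib against control. The cytosolic ribosomal proteins, the products that the factors assemble, had a median of -0.08 over 69 measured genes, and 2 rose and 0 fell, which is no more than the 4.26% of all genes higher: RPL37 (0.69, SE 0.11, adjusted p = 0.00386) and RPL22 (0.48, SE 0.13, adjusted p = 0.0417). Ribosomal protein families have many near-identical processed copies, so what their probes read is uncertain.

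**Figure D5:**
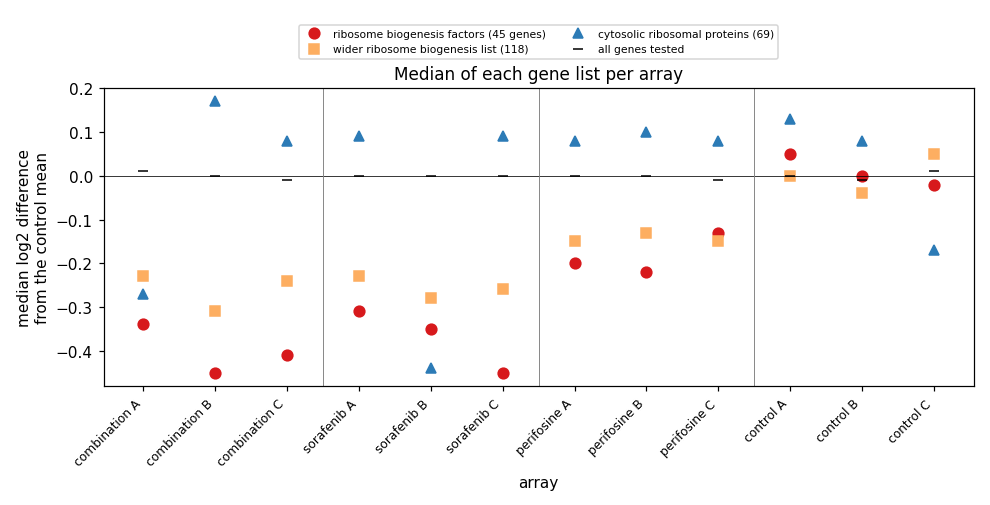
Median over each gene list of the log2 difference from the mean of the control arrays (y axis), for each of the 12 arrays (x axis). The medians of the 45 factors lie between -0.45 and -0.31 in arrays with sorafenib, between -0.22 and -0.13 in perifosine arrays and between -0.02 and 0.05 in control arrays, while ribosomal proteins are at -0.27 in combination A, -0.44 in sorafenib B and -0.17 in control C and between 0.08 and 0.17 in the other 9 arrays.

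Per array, the median of the 45 factors relative to the control mean was -0.34, -0.45 and -0.41 in combination arrays, -0.31, -0.35 and -0.45 in sorafenib arrays, -0.20, -0.22 and -0.13 in perifosine arrays and 0.05, 0.00 and -0.02 in control arrays. All 6 medians with sorafenib were below all 3 perifosine medians, and these were below all 3 control medians. The control arrays are set against their own mean here, so their medians lie close to that reference by construction. The ribosomal proteins had their lowest medians in the 3 arrays that stood apart.

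Markers of another cell type also moved with sorafenib. Of 6 fibroblast and stroma markers, COL1A1, COL1A2, DCN and THY1 were above the dim limit and all 4 rose in the averaged comparison, while COL3A1 and LUM were near the background. The summed intensity of the 6 was 67060 to 80766 in combination arrays, 68277 to 82330 in sorafenib arrays, 27405 to 32300 in perifosine arrays and 32679 to 39748 in control arrays. Of 5 epithelial markers KRT19 rose, and of 6 Hodgkin cell markers JUNB, also a target of growth signalling, fell. The summed monocyte and macrophage markers were higher in perifosine arrays, at 14095 to 14601 in combination arrays, 9565 to 14465 in sorafenib arrays, 19190 to 19693 in perifosine arrays and 13543 to 14966 in control arrays. CD68 was at 0.53 in perifosine against control (SE 0.15, adjusted p = 0.287). The summed Hodgkin cell markers were 3778 to 4432 in combination arrays, 3824 to 4715 in sorafenib arrays, 5953 to 6803 in perifosine arrays and 4580 to 5003 in control arrays. TRAF1 and JUNB were at 0.85 and 0.73 in perifosine against control (adjusted p = 0.209 and 0.281). The part of these markers in the changes of the ribosome biogenesis factors was not tested.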

How the data were processed

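RNA from 12 samples of HD-MyZ, 3 in each of 4 groups, had been read on Illumina arrays. The authors deposited intensity values on a linear scale, 1 per probe and array, made with BeadStudio per the submitters' processing notes; its version and normalization are not given in the sources used here. A second table has 24 columns of per-sample values whose names match no label, and it was not used. Of 48803 probes, 28098 had 1 gene symbol in the platform annotation, 13 had several and 20692 were unnamed. Each gene was read from its brightest probe. With limma 3.58.1 in R 4.3.3, 4 group means were fitted to log2 intensity with no further normalization (8 residual and 3.52 prior degrees of freedom), and 8 contrasts were tested two-sided with Benjamini-Hochberg adjustment over 18852 genes and a threshold of 0.05. The fit was checked on simulated data with independent noise in each gene and array. Deviations shared between arrays, as in the 3 that stood apart, were not simulated. The number of arrays limits the precision. The factors and all gene lists were chosen with earlier results of these data known. Values per array are given for factors past the threshold in any contrast and, for a role with none, for the factor with the largest change in sorafenib against control; of wider lists, up to 4 called genes are named. NOP16, WDR74 and others outside this rule were chosen after their values were seen. Promoters of up to 4 factors with the smallest adjusted p were printed. Alternatives tried were the arrays in the fit, normexp (offset 50), quantile normalization, a filter on dim genes, the mean of probes, array weights, a replicate block, leaving out 3 arrays and leaving out each array.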

Additional observations from a re-analysis of the deposited data

How the results depend on the processing

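Of the 10 calls with sorafenib averaged over perifosine, 8 (all but DDX56 and IMP3) passed in all 19 alternatives, with a highest adjusted p of 0.00553 (BYSL) to 0.0428 (RRP9). The count moved to 18 with array weights and to 20 without the 3 arrays that stood apart (19 fell, WDR74 rose). It ran between 8 and 14 when 1 array was left out, and both larger sets held all 10. The share of all genes called, in either direction, moved as well. This share was 13.8% with array weights, 13.5% without the 3 arrays and 4.57% to 9.65% with 1 array left out. For the combination against control (5 calls) the count was 0 with normexp, 14 with array weights and 16 without the 3 arrays. It was 0 to 16 with 1 array left out. Of all genes, 1.07%, 6.26%, 5.9% and 0.472% to 5.55% were called, in the same order. For sorafenib against control (5 calls) the count was 0 with only the arrays compared and 1 with normexp. It was 15 with array weights, 11 without the 3 arrays and 1 to 9 with 1 array left out. Of all genes, 0.053%, 1.24%, 6.63%, 4.65% and 0.589% to 3.02% were called, in the same order. For the combination against perifosine (2 calls) the count was 4 with only the arrays compared and 1 with normexp. It was 6 with array weights, 6 without the 3 arrays and 0 to 4 with 1 array left out. Of all genes, 4.47%, 1.67%, 6.93%, 6.92% and 1.14% to 5.57% were called, in the same order. The cause was not tested. Counts of the other 4 comparisons were 0 in every alternative run, and no median of the 45 factors changed sign in a comparison where it exceeded the spread of array medians. Deviations of same-letter arrays from their group means had correlations of -0.57 to 0.49 over 18 pairs, 5 of them over 0.1. The best partner of 6 arrays had their own letter. The 3 arrays that stood apart carry different letters and correlated with each other at 0.6 to 0.67, which lowers same-letter values. These correlations therefore cannot decide whether the letters pair the samples. With a replicate block the counts were 9 for averaged sorafenib (5.8% of all genes) and 4 for the combination against control (1.45%). They were 4 for sorafenib against control (1.78%), 2 for the combination against perifosine (1.85%) and 0 for the others. Filters from the table without normalization were not run, since its columns match no label. A fit of only the arrays compared is the same fit for the averaged contrasts and the interaction. NPM1, RRP1 and UTP20 are limited by signal near the background.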
